A study of Arabidopsis thaliana with 16 samples.

Results

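Rosette tissue of d14-7, a mutant of the strigolactone receptor D14 in Arabidopsis thaliana, was compared directly with rosette tissue of ckx3 ckx5, a mutant of the cytokinin oxidases CKX3 and CKX5. The comparison rests on the 8 libraries of these genotypes out of the 16 libraries of the series, and on the 20440 of 33602 loci whose counts passed an expression filter on these 8 libraries. Plants without D14 are known for many rosette branches, and the series title states that losing CKX3 and CKX5 suppresses rosette branching, so the contrast sets high branching against low branching. Wild type Col-0 (WT) was left out of the test, and its level is given beside the genes described.

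Poly(A) RNA was sequenced from the rosette region of bolting plants whose bolt was under 1 cm. Leaves, roots and the upper stem had been cut away. The d14-7, ckx3 ckx5 and WT plants were harvested 23 days after sowing and the scl28 plants of the fourth genotype 25 days after sowing. All plants grew in 16 h light and 8 h dark and were harvested between 9 and 11 in the morning, and the hour of each library is not given in the sources used here. Each genotype had 4 libraries, each from its own pool of 2 to 3 plants, chosen from 5 pools by RNA integrity. Each mutant is represented by 1 line, and pooled plants hide the spread between single plants.

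Total counts ran from 24334925 to 35887553 over the 8 libraries. Correlations of log2 CPM (counts scaled to a common library size) lay between 0.9879 and 0.9901 within d14-7, between 0.9887 and 0.9917 within the libraries labelled ckx3 ckx5 and between 0.9581 and 0.9694 across the genotypes. The first principal component held 65.1% of the variance and separated the genotypes. The second held 8.4% and set d14-7 replicates 2 and 4 and replicate 3 of the libraries labelled ckx3 ckx5 apart from the other 5 libraries. Markers of other tissue were summed per library. The 26 leaf photosynthesis genes summed to 43249 to 54940 CPM in d14-7 and 34529 to 39588 CPM in the libraries labelled ckx3 ckx5, without overlap, while WT ran from 30103 to 51574 CPM. The part of this difference in the results was not tested. The 16 xylem markers summed to 385 to 464 CPM in d14-7 and 369 to 415 CPM in the libraries labelled ckx3 ckx5. The 20 meristem and boundary genes summed to 536 to 591 CPM in d14-7 and 582 to 637 CPM in the libraries labelled ckx3 ckx5. Root markers were near 0, with 1.53 to 1.75 CPM over 6 genes in d14-7 and 1.86 to 2.09 CPM in the libraries labelled ckx3 ckx5. RHD6, a root hair regulator, had no count in d14-7 and EXPA7, a root hair expansin, had none in the libraries labelled ckx3 ckx5.

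The mutated genes were examined first. Positions are those of the RefSeq annotation of TAIR10.1. D14 (AT3G03990, chr3:1033579-1035237, plus strand) was counted in every library, with 27.5, 28.2, 32.1 and 32.9 CPM in d14-7, against 28.5, 30, 28.5 and 26 CPM in the libraries labelled ckx3 ckx5. The ranges overlap (log2 fold change 0.12 ± 0.07 (SE), edgeR adjusted p = 0.193), and WT stood higher at 41.1 ± 1.91 CPM (SD, n = 4). CKX5 (AT1G75450, chr1:28314458-28318375, minus strand) was lower in the mutant labelled for it, with 5.55, 6.34, 7.62 and 11 CPM in d14-7, against 2.18, 2.47, 2.43 and 4.26 CPM in the libraries labelled ckx3 ckx5 (log2 fold change 1.46 ± 0.26 (SE), edgeR adjusted p = 0.00115), but WT at 2.09 to 6.06 CPM overlapped that range. CKX3 (AT5G56970, chr5:23044839-23048292, minus strand) went against its label. Its transcript measured 0.125, 0.582, 0.262 and 0.711 CPM in d14-7, against 1.81, 1.43, 1.98 and 1.73 CPM in the libraries labelled ckx3 ckx5 (log2 fold change -1.96 ± 0.35 (SE), edgeR adjusted p = 0.000569), and WT averaged 0.338 ± 0.296 CPM (SD, n = 4). All 4 libraries labelled ckx3 ckx5 were above all d14-7 and WT libraries. A count over a whole locus does not show a point mutation or a truncated transcript, so CKX3 and CKX5 do not establish the genotype here, and every direction below rests on the label.

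Strigolactones are carotenoid-derived hormones that restrain the outgrowth of axillary buds. The receptor D14 binds the hormone and, with the F-box protein MAX2, marks the repressors SMXL6, SMXL7 and SMXL8 for destruction. In buds these repressors hold down BRC1, a TCP transcription factor that keeps buds dormant and acts through the homeodomain genes HB21, HB40 and HB53 and the abscisic acid synthesis gene NCED3. Cytokinins act the other way and favour outgrowth, and cytokinin oxidases break them down.

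A locus is said below to have risen or fallen in d14-7 where its edgeR quasi-likelihood test gave a Benjamini-Hochberg adjusted p under 0.05 over all 20440 loci. A size after "rose by" or "fell by" is a log2 fold change with its SE. By the test 9372 loci, 45.9% of those tested, differed between the genotypes. Of these, 4812 (23.5%) rose in d14-7 and 4560 (22.3%) fell. Most differences were small, with a median size of 0.41 on the log2 scale, and 787 loci (3.85%) rose and 595 (2.91%) fell at least 2-fold, 1382 loci (6.76%) in all. In 8663 loci (42.4%) the 4 d14-7 libraries and the 4 others did not overlap. The lists below are read against that share of 45.9%, and their rises and falls against 23.5% and 22.3%. Where a list lies near these shares, its count does not set it apart from all loci. List medians are read against a median log2 fold change of -0.001 over all loci. WT lay between both mutants in 504 of the 787 larger rises and in 435 of the 595 larger falls. The mean of scl28 lay between them in 433 of these rises and 385 of these falls, so this position is not particular to WT. These loci were chosen for a difference between both mutants. WT was nearer to d14-7, on the log2 scale, in 484 of the rises and 247 of the falls. The larger changes were spread over the chromosomes, with 6.38% of tested loci on chromosome 2 and 7.13% on chromosome 4 at the extremes.

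**Figure D1:**
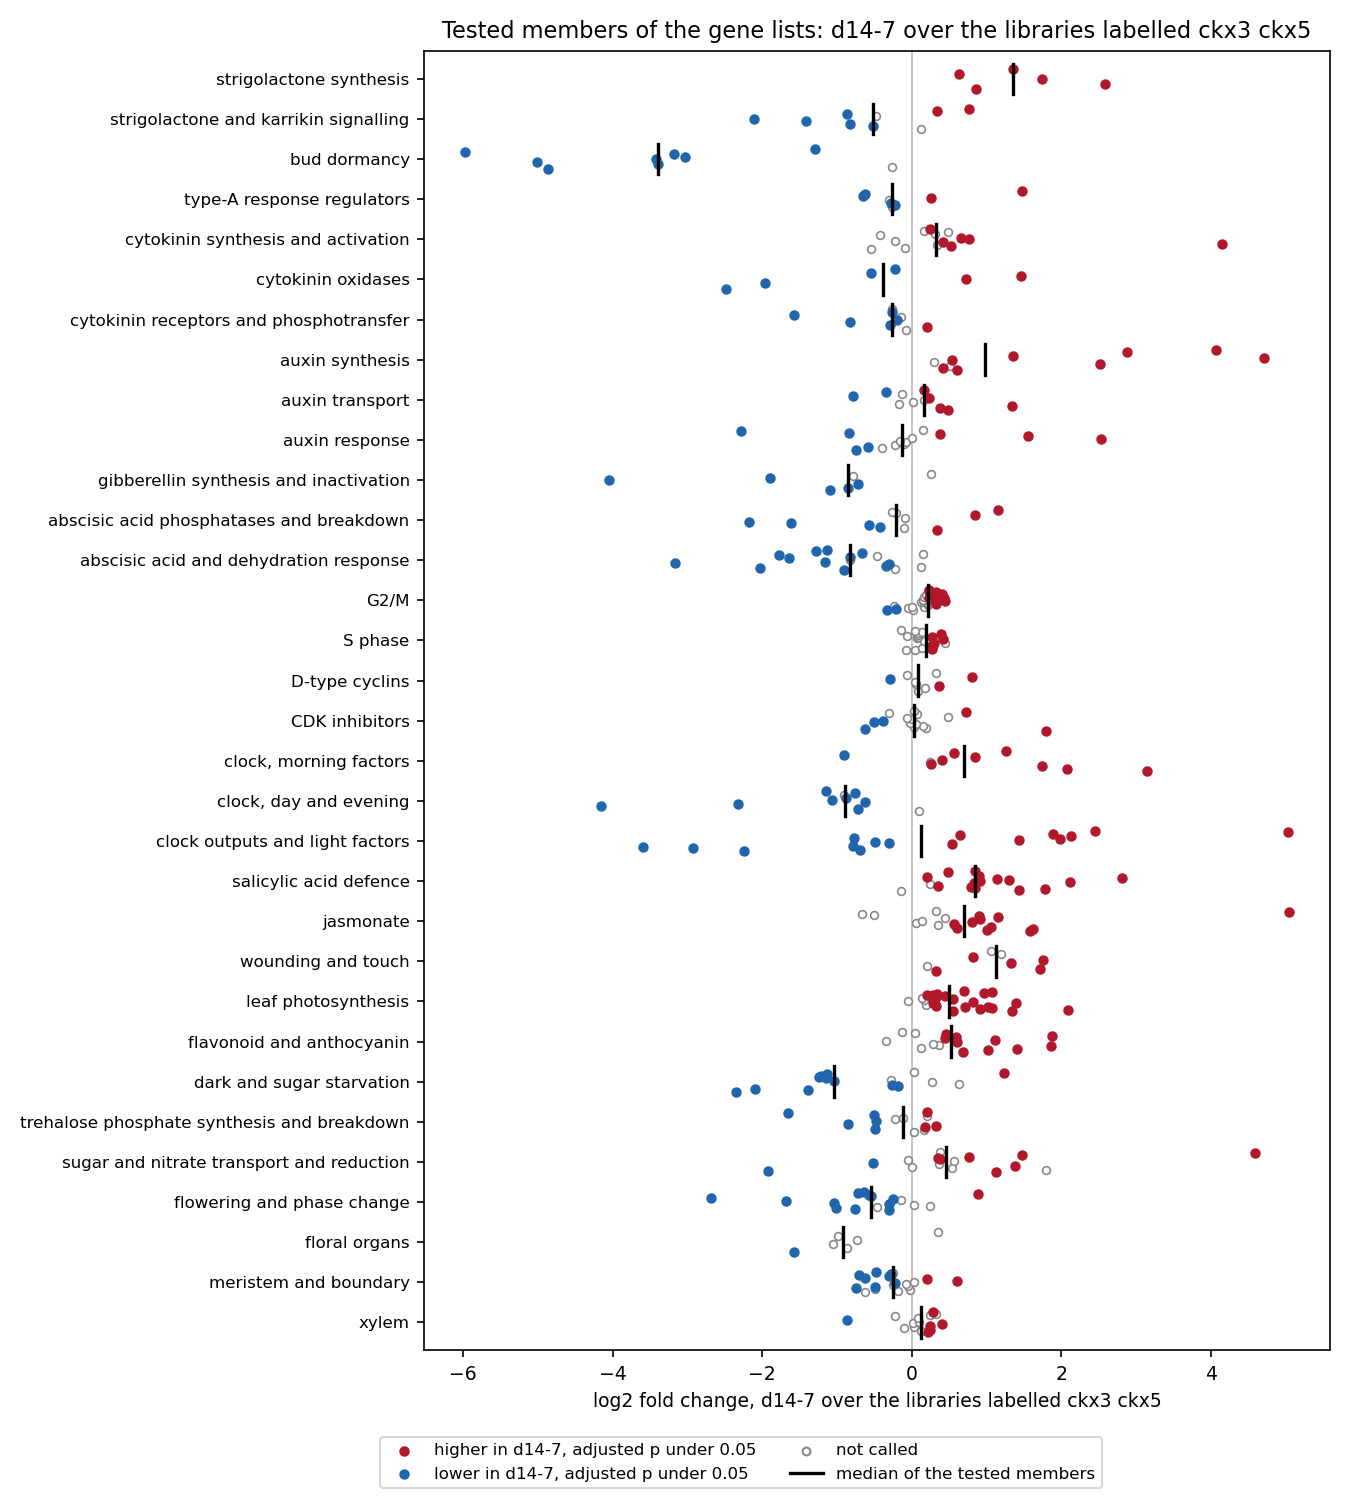
Log2 fold change (x axis, d14-7 over the libraries labelled ckx3 ckx5) of each tested member of 32 gene lists (rows), where each point is 1 gene and the black bar is the median of the list. Red points rose and blue points fell at an adjusted p under 0.05. The bud dormancy list lies farthest to the left, with a median of -3.39, and the strigolactone synthesis list farthest to the right, with a median of 1.35.

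Bud dormancy genes had the lowest median of the lists examined. Of the 9 members, all tested, 8 fell and none rose, and the median log2 fold change was -3.39. BRC1 (AT3G18550, chr3:6383289-6385815, plus strand), which keeps axillary buds dormant, had 0.334, 0.367, 0.49 and 0.284 CPM in d14-7, against 12.3, 12.3, 12.6 and 6.96 CPM in the libraries labelled ckx3 ckx5 (log2 fold change -4.87 ± 0.25 (SE), edgeR adjusted p = 3.89e-08). The d14-7 libraries lay far below all others, replicate 4 of the libraries labelled ckx3 ckx5 was lower than the other 3, and WT averaged 6.98 ± 0.677 CPM (SD, n = 4). Its homologue BRC2 did not pass the test (log2 fold change -0.26 ± 0.14 (SE), edgeR adjusted p = 0.155). Without replicate 4 of the libraries labelled ckx3 ckx5 all 9 members were called as fallen, BRC2 among them.

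HB21, HB40 and HB53 encode the homeodomain proteins that act below BRC1. HB21 (AT2G18550, chr2:8049371-8051316, minus strand) measured 0.876, 0.52, 0.327 and 0.455 CPM in d14-7, against 7.2, 5.95, 5.11 and 4.36 CPM in the libraries labelled ckx3 ckx5 (log2 fold change -3.39 ± 0.26 (SE), edgeR adjusted p = 4.94e-07). HB40 (AT4G36740, chr4:17314453-17316441, minus strand) measured 0.292, 0.0918, 0.163 and 0.228 CPM in d14-7, against 7.24, 7.17, 6.79 and 4.01 CPM in the libraries labelled ckx3 ckx5 (log2 fold change -5.01 ± 0.3 (SE), edgeR adjusted p = 7.79e-08). HB53 (AT5G66700, chr5:26634275-26635885, plus strand) measured 0.751, 0.551, 1.31 and 0.569 CPM in d14-7, against 9.54, 10.2, 9.07 and 5.74 CPM in the libraries labelled ckx3 ckx5 (log2 fold change -3.42 ± 0.27 (SE), edgeR adjusted p = 1.92e-06). In each of these genes every d14-7 library was below every library labelled ckx3 ckx5, and below every WT library. WT averaged 5.18 ± 2.62 CPM (SD, n = 4) for HB21, 4.24 ± 0.475 CPM (SD, n = 4) for HB40 and 7.58 ± 3.34 CPM (SD, n = 4) for HB53. The promoters of HB21 and HB40 are shown because these genes fell together and share a stretch of letters. The capitals mark the longest run of letters common to both, 14 bases long, in windows from 250 bases before to 50 bases after the gene start of the RefSeq annotation (TAIR10.1), read 5′ to 3′ on the coding strand.
HB21, chr2:8051267-8051566 (minus strand): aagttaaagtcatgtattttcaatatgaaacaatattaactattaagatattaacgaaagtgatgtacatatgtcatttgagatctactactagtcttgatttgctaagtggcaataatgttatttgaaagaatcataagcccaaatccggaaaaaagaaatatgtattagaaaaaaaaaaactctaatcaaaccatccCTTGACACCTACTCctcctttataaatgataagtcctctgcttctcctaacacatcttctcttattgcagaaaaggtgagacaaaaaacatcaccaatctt
HB40, chr4:17316392-17316691 (minus strand): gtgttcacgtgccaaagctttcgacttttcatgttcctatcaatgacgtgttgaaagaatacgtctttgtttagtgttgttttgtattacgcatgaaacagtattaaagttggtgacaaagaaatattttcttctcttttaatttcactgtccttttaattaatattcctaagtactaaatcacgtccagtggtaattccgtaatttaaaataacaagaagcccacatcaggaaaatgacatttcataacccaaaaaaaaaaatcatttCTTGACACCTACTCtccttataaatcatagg
The run begins 51 bases before the start of HB21 and 19 bases after that of HB40. Longest shared runs between other promoters were examined only for HB53. The longest runs shared with the promoter of HB53 were 8 bases for HB21 and 7 for HB40. The letters GGNCCC, which form the core bound by TCP factors of the BRC1 class and read GGGNCC on the other strand, were found in none of the windows of HB21, HB40 and HB53, in 2 of the 9 bud dormancy promoters (NCED3 and DRM1) and in 9.83% of all promoters of tested loci.

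NCED3, which makes the precursor of abscisic acid, had 0.876, 1.1, 0.719 and 0.683 CPM in d14-7, against 8.64, 8.71, 6.24 and 4.58 CPM in the libraries labelled ckx3 ckx5 (log2 fold change -3.03 ± 0.24 (SE), edgeR adjusted p = 9.82e-07). No d14-7 library reached the lowest of the others, and WT averaged 6.53 ± 3.91 CPM (SD, n = 4). DRM1 and DRM2 encode proteins associated with bud dormancy. DRM1 measured 8.3, 7.78, 10.5 and 10.2 CPM in d14-7, against 91.6, 99.4, 83.1 and 65.4 CPM in the libraries labelled ckx3 ckx5 (log2 fold change -3.18 ± 0.15 (SE), edgeR adjusted p = 6.06e-07). DRM2 measured 0.417, 0.52, 0.49 and 1.05 CPM in d14-7, against 42.6, 57.2, 40.5 and 24.9 CPM in the libraries labelled ckx3 ckx5 (log2 fold change -5.97 ± 0.39 (SE), edgeR adjusted p = 2.1e-05). Both genes stood higher in the libraries labelled ckx3 ckx5 than in WT, where DRM1 averaged 27.4 ± 12.9 CPM (SD, n = 4) and DRM2 10.2 ± 5.5 CPM (SD, n = 4). Replicate 4 was the lowest of the libraries labelled ckx3 ckx5 in BRC1, HB21, HB40, HB53, NCED3, DRM1, DRM2 and HIS1-3. HIS1-3, a linker histone induced by drought, had 1.04, 0.704, 1.05 and 0.569 CPM in d14-7, against 2.4, 3.51, 1.46 and 0.962 CPM in the libraries labelled ckx3 ckx5. The ranges of HIS1-3 overlap (log2 fold change -1.29 ± 0.38 (SE), edgeR adjusted p = 0.0165). In bulk tissue, fewer cells of a type and less RNA per cell cannot be told apart, which holds for these and for all values below.

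**Figure D2:**
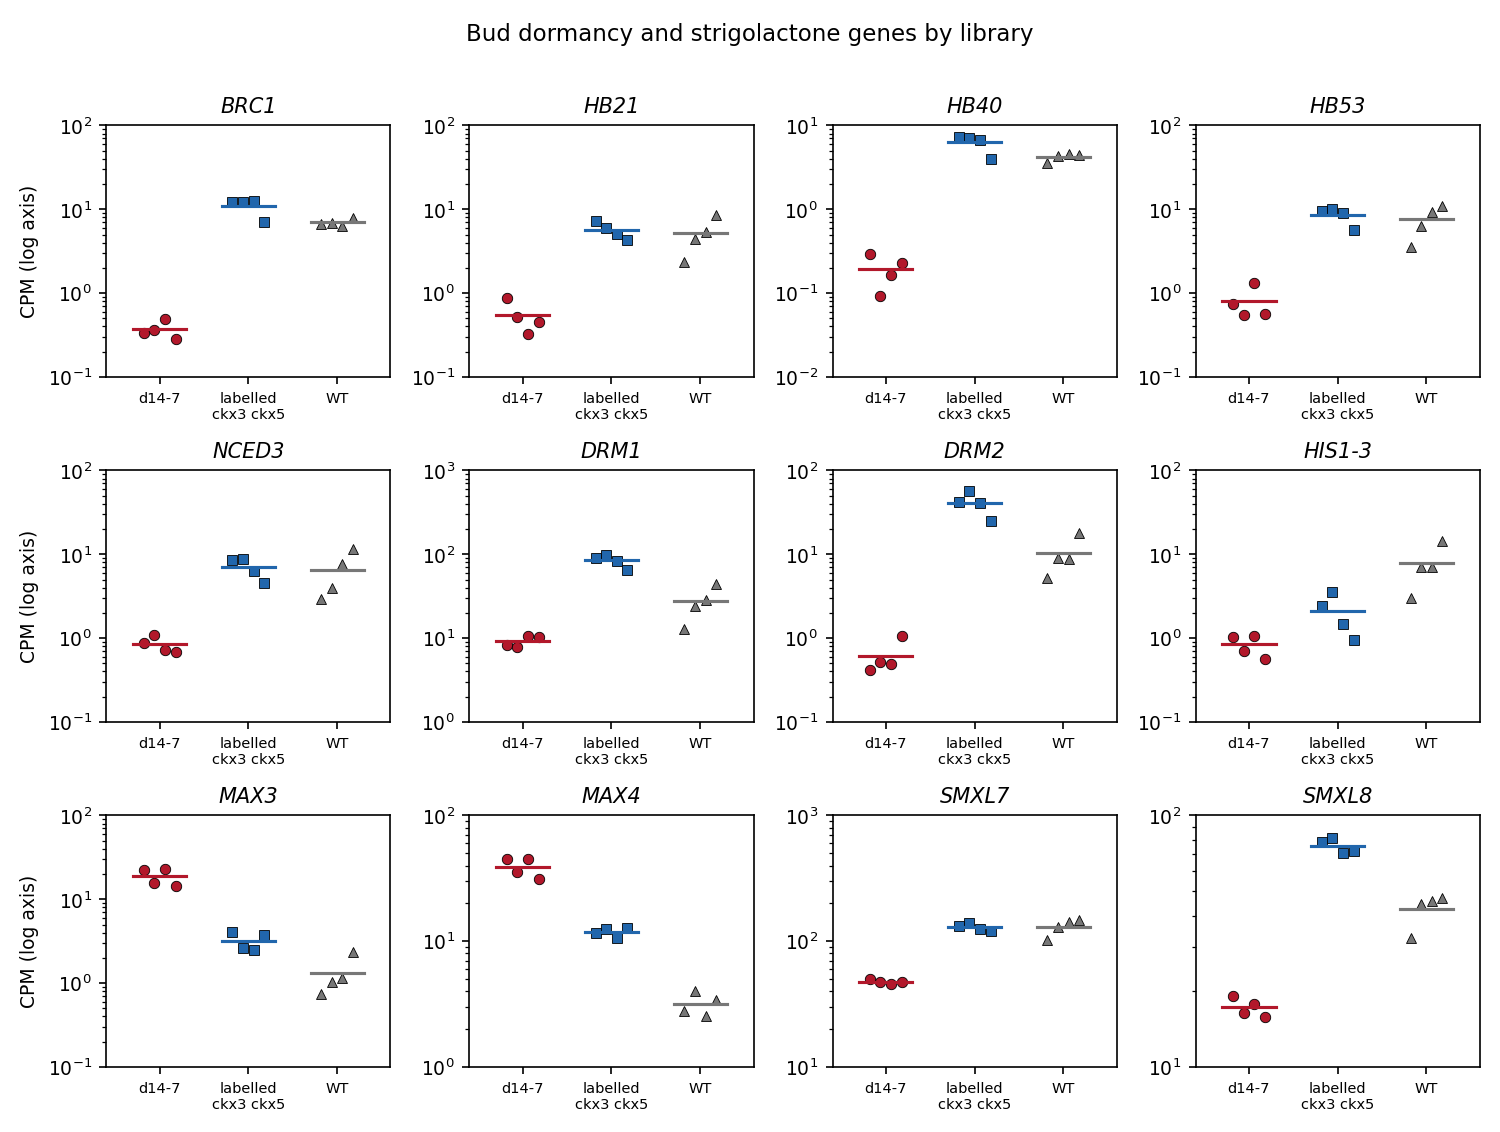
Level of 12 bud dormancy and strigolactone genes in CPM (y axis, log scale) in the 4 libraries each of d14-7, the libraries labelled ckx3 ckx5 and WT (x axis); points are libraries and bars are means. In every panel but HIS1-3 the d14-7 libraries are separate from the libraries labelled ckx3 ckx5, below them for the dormancy genes, SMXL7 and SMXL8 and above them for MAX3 and MAX4.

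Genes that make strigolactone rose together in d14-7. All 5 members rose, with a median log2 fold change of 1.35, and in each of them no library overlapped. MAX3 and MAX4, the carotenoid cleavage dioxygenases of the pathway, rose the most. MAX3 (AT2G44990, chr2:18558885-18561621, plus strand) had 22.5, 15.8, 23.2 and 14.5 CPM in d14-7, against 4.02, 2.62, 2.5 and 3.72 CPM in the libraries labelled ckx3 ckx5 (log2 fold change 2.58 ± 0.21 (SE), edgeR adjusted p = 8.29e-06), and MAX4 (AT4G32810, chr4:15828228-15831492, plus strand) had 45, 35.3, 44.7 and 31.2 CPM in d14-7, against 11.7, 12.5, 10.6 and 12.8 CPM in the libraries labelled ckx3 ckx5 (log2 fold change 1.74 ± 0.12 (SE), edgeR adjusted p = 1.55e-06). Both genes were lowest in WT, at 1.32 ± 0.697 CPM (SD, n = 4) for MAX3 and 3.18 ± 0.656 CPM (SD, n = 4) for MAX4. LBO1, an oxidoreductase of a late step, had 32.4, 28.4, 35.4 and 22.1 CPM in d14-7, against 12, 11.7, 10.3 and 13 CPM in the libraries labelled ckx3 ckx5 (log2 fold change 1.35 ± 0.14 (SE), edgeR adjusted p = 2.65e-05). MAX1, the cytochrome P450 of the pathway, had 49.2, 46.8, 45.7 and 41.4 CPM in d14-7, against 32.3, 31.4, 28.9 and 27.3 CPM in the libraries labelled ckx3 ckx5 (log2 fold change 0.63 ± 0.07 (SE), edgeR adjusted p = 1.19e-05), and here WT stood highest at 69.5 ± 16.8 CPM (SD, n = 4). The isomerase gene D27 rose by 0.86 ± 0.18 (log2 scale, SE; edgeR adjusted p = 0.00176), a call lost when all 16 libraries gave the spread (edgeR adjusted p = 0.0511).

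Most signalling genes fell. Of 9 members of the strigolactone and karrikin list, 5 fell and 2 rose, with a median of -0.52. SMXL8 (AT2G40130, chr2:16765709-16769279, plus strand), one of the repressors destroyed on strigolactone perception, had 19.2, 16.4, 17.8 and 15.8 CPM in d14-7, against 78.7, 81.1, 70.7 and 72.3 CPM in the libraries labelled ckx3 ckx5 (log2 fold change -2.11 ± 0.07 (SE), edgeR adjusted p = 7.04e-10). SMXL7 had 50.4, 47.7, 45.9 and 47.1 CPM in d14-7, against 131, 140, 124 and 121 CPM in the libraries labelled ckx3 ckx5 (log2 fold change -1.41 ± 0.06 (SE), edgeR adjusted p = 3.66e-09). No d14-7 library reached the others in either gene. WT averaged 42.4 ± 6.58 CPM (SD, n = 4) for SMXL8, between both mutants, and 130 ± 20 CPM (SD, n = 4) for SMXL7, at the level of the libraries labelled ckx3 ckx5. SMXL6 fell less (log2 fold change -0.82 ± 0.08 (SE), edgeR adjusted p = 6.11e-06), as did KAI2, the karrikin receptor (log2 fold change -0.86 ± 0.08 (SE), edgeR adjusted p = 2.47e-06), and MAX2 (log2 fold change -0.52 ± 0.07 (SE), edgeR adjusted p = 5.4e-05). The members that rose were SMAX1, the repressor of the karrikin branch (log2 fold change 0.34 ± 0.06 (SE), edgeR adjusted p = 0.000342), and KUF1, an F-box gene induced by karrikin (log2 fold change 0.76 ± 0.14 (SE), edgeR adjusted p = 0.000703).

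Cytokinin genes differed in both directions. Type-A response regulators, which cytokinin induces and which damp its signal, gave 2 rises and 4 falls among 8 tested members (median -0.27). ARR15 had 7.38, 9.21, 6.83 and 7.74 CPM in d14-7, against 11.5, 11.8, 11.1 and 14.4 CPM in the libraries labelled ckx3 ckx5 (log2 fold change -0.62 ± 0.11 (SE), edgeR adjusted p = 0.000564), ARR9 fell by 0.65 ± 0.09 (edgeR adjusted p = 0.000128) and ARR5 fell by 0.23 ± 0.06 (edgeR adjusted p = 0.0102). The d14-7 libraries lay below the others in all 3 genes, and above the WT averages of 6.05 ± 2.57 CPM (SD, n = 4) for ARR15 and 19.9 ± 4.1 CPM (SD, n = 4) for ARR5. When all 16 libraries gave the spread, 1 fall was left among the type-A regulators. ARR15 (edgeR adjusted p = 0.0544), ARR5 (0.171) and ARR6 (0.171) were not called in that fit, and the call of ARR6 was lost under 6 of 17 alternatives. ARR7 did not pass the test (log2 fold change -0.3 ± 0.12 (SE), edgeR adjusted p = 0.0677) but did under 4 alternatives, with DESeq2, with a replicate block, without replicate 1 of the libraries labelled ckx3 ckx5 and without d14-7 replicate 4. ARR16 and ARR8 were the members that rose. ARR16 had 3.09, 4.01, 4.38 and 4.75 CPM in d14-7, against 1.47, 1.08, 1.83 and 1.54 CPM in the libraries labelled ckx3 ckx5 (log2 fold change 1.48 ± 0.19 (SE), edgeR adjusted p = 4.32e-05).

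Among the oxidases that break cytokinin down, 4 of 6 tested members fell and 2 rose. CKX1 (AT2G41510, chr2:17314412-17317354, plus strand) had 7.26, 7.47, 7.98 and 7 CPM in d14-7, against 42.3, 39.9, 40.2 and 46.3 CPM in the libraries labelled ckx3 ckx5 (log2 fold change -2.48 ± 0.07 (SE), edgeR adjusted p = 1.94e-10), and the d14-7 libraries were also far below WT at 33 ± 3.84 CPM (SD, n = 4). CKX6 fell by 0.54 ± 0.08 (edgeR adjusted p = 9.66e-05) and CKX7 by 0.23 ± 0.06 (edgeR adjusted p = 0.00551), while CKX4 rose (log2 fold change 0.72 ± 0.14 (SE), edgeR adjusted p = 0.000837). The mutated CKX3 and CKX5 are the other members called, in the directions given above. Of 14 tested genes that make or activate cytokinin, 6 rose and none fell (median 0.33). IPT3, a main isopentenyltransferase of the shoot vasculature, had 27, 25.4, 20.3 and 26.1 CPM in d14-7, against 18.9, 19.3, 15.1 and 16.5 CPM in the libraries labelled ckx3 ckx5 (log2 fold change 0.53 ± 0.1 (SE), edgeR adjusted p = 0.00107), with WT at the d14-7 level at 23.5 ± 2.58 CPM (SD, n = 4). IPT7 gave 60 counts over the 4 d14-7 libraries, against 3 over the 4 libraries labelled ckx3 ckx5, which allows a ratio per total count of 6.58 to 101 (95% exact interval, counting error only). WT had 76 counts of IPT7. LOG1, an activating enzyme, rose by a log2 fold change of 0.66 ± 0.11 (edgeR adjusted p = 0.000276) and IPT9, which works on transfer RNA, by 0.42 ± 0.08 (edgeR adjusted p = 0.00113).

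Receptors and phosphotransfer proteins gave 1 rise and 5 falls among 9 members (median -0.26). AHP4, a phosphotransfer protein, fell by 1.58 ± 0.27 (edgeR adjusted p = 0.000368) and AHP1 by 0.83 ± 0.15 (edgeR adjusted p = 0.000535). The receptor gene AHK4 fell by 0.29 ± 0.06 (edgeR adjusted p = 0.00232), but on its transcript model the sign turned (0.32 ± 0.37, edgeR adjusted p = 0.553). AHK3, another receptor, rose by 0.2 ± 0.06 (edgeR adjusted p = 0.0225), and the call was lost when any 1 of 4 libraries was left out (d14-7 replicates 1 and 3, and replicates 1 and 4 of the libraries labelled ckx3 ckx5).

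**Figure D3:**
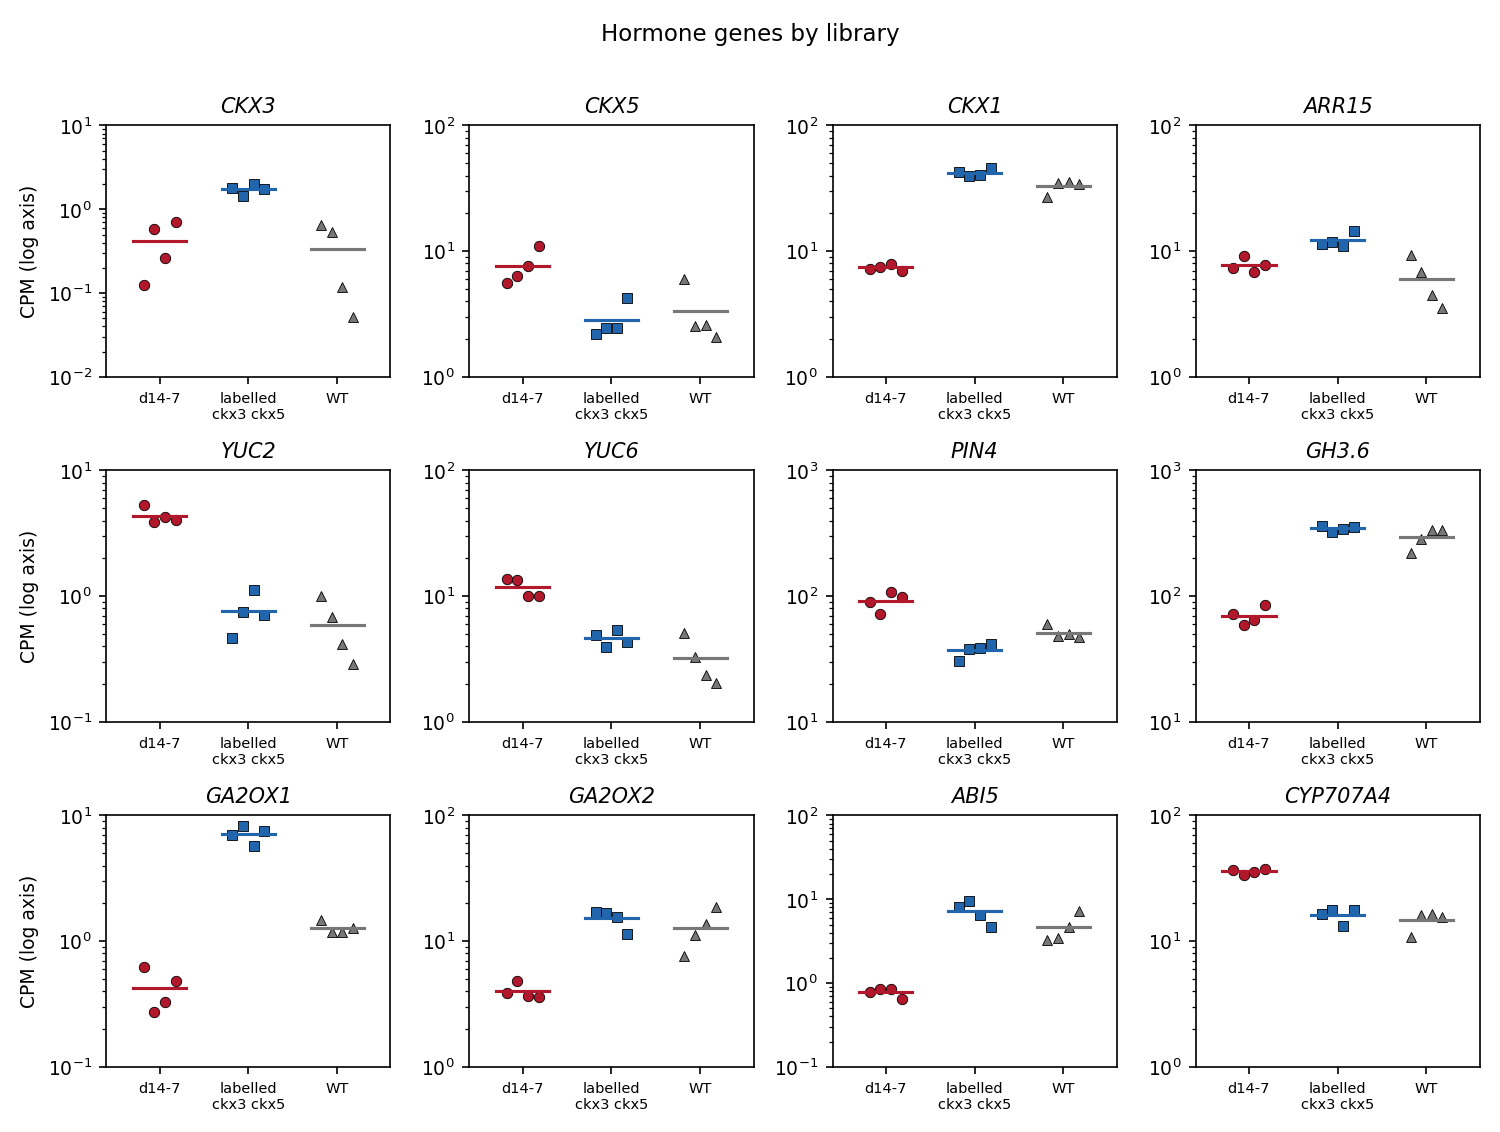
Level of 12 cytokinin, auxin, gibberellin and abscisic acid genes in CPM (y axis, log scale) in the 4 libraries each of d14-7, the libraries labelled ckx3 ckx5 and WT (x axis); points are libraries and bars are means. The d14-7 libraries are above the libraries labelled ckx3 ckx5 for CKX5, YUC2, YUC6, PIN4 and CYP707A4 and below them for the other 7 genes.

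Auxin synthesis genes rose in d14-7. Of 10 tested members 8 rose and none fell, with a median of 0.99. YUC2 and YUC6 encode flavin monooxygenases of the last step. YUC2 had 5.3, 3.89, 4.25 and 4.01 CPM in d14-7, against 0.468, 0.753, 1.13 and 0.705 CPM in the libraries labelled ckx3 ckx5 (log2 fold change 2.52 ± 0.23 (SE), edgeR adjusted p = 2.14e-06), and YUC6 had 13.7, 13.4, 10.1 and 10 CPM in d14-7, against 4.96, 3.91, 5.39 and 4.33 CPM in the libraries labelled ckx3 ckx5 (log2 fold change 1.36 ± 0.14 (SE), edgeR adjusted p = 5.39e-06). Every d14-7 library was above every other, and the libraries labelled ckx3 ckx5 overlapped WT, which averaged 0.595 ± 0.314 CPM (SD, n = 4) for YUC2 and 3.2 ± 1.37 CPM (SD, n = 4) for YUC6. YUC9, a related enzyme, had 1.08, 0.398, 1.77 and 1.76 CPM in d14-7, against 0.0312, 0.0359, 0.152 and 0.0641 CPM in the libraries labelled ckx3 ckx5 (log2 fold change 4.07 ± 0.6 (SE), edgeR adjusted p = 0.000156), and without replicate 3 of the libraries labelled ckx3 ckx5 the value was 4.73. YUC8 had 1.04, 0.673, 3.5 and 2.73 CPM in d14-7, against 0.125, 0.143, 0.152 and 0.673 CPM in the libraries labelled ckx3 ckx5, where the lowest d14-7 value equals the highest of the others to 3 digits (log2 fold change 2.88 ± 0.7 (SE), edgeR adjusted p = 0.00882), and the fold change was 3.81 without replicate 4 of the libraries labelled ckx3 ckx5. YUC5 had 89 counts over d14-7, against 3 counts, all in replicate 3, over the libraries labelled ckx3 ckx5 (ratio 29.9 per total count, exact interval 9.92 to 148). TAA1, the aminotransferase of the step before, had 14, 17.5, 15.6 and 16.7 CPM in d14-7, against 10.1, 8.93, 11.8 and 11.7 CPM in the libraries labelled ckx3 ckx5 (log2 fold change 0.61 ± 0.1 (SE), edgeR adjusted p = 0.000291).

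Auxin transport genes gave 5 rises and 2 falls among 11 members (median 0.16). PIN4, an auxin exporter, had 90.2, 72.3, 108 and 99.1 CPM in d14-7, against 30.3, 37.7, 39 and 41.5 CPM in the libraries labelled ckx3 ckx5 (log2 fold change 1.34 ± 0.14 (SE), edgeR adjusted p = 6.73e-05). The d14-7 libraries were above all others, and WT averaged 51.2 ± 5.72 CPM (SD, n = 4). PIN3 rose by 0.38 ± 0.09 (edgeR adjusted p = 0.00465) with overlapping ranges. The importer gene LAX3 fell by 0.79 ± 0.1 (edgeR adjusted p = 3.72e-05) and ABCB19, an exporter of another family, by 0.35 ± 0.06 (edgeR adjusted p = 0.000387).

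Auxin response genes gave 3 rises and 4 falls among 14 members (median -0.13), a share close to that of all loci. Without replicate 1, or without replicate 2, of the libraries labelled ckx3 ckx5 the count of rises was 1. GH3.6, which ties auxin to amino acids, had 71.7, 59.1, 64.4 and 85.4 CPM in d14-7, against 362, 327, 341 and 354 CPM in the libraries labelled ckx3 ckx5 (log2 fold change -2.28 ± 0.1 (SE), edgeR adjusted p = 2.99e-08). The d14-7 libraries lay below all others and below WT at 295 ± 54.9 CPM (SD, n = 4). IAA29, a repressor of auxin signalling, had 3.34, 2.14, 10.7 and 13.3 CPM in d14-7, against 1.15, 0.932, 1.58 and 1.54 CPM in the libraries labelled ckx3 ckx5 (log2 fold change 2.53 ± 0.66 (SE), edgeR adjusted p = 0.0191), with d14-7 replicates 3 and 4 well above replicates 1 and 2. The call of IAA29 was lost without replicate 1 (edgeR adjusted p = 0.0584) or replicate 2 (0.0545) of the libraries labelled ckx3 ckx5. GH3.1, a relative of GH3.6, rose by 1.56 ± 0.3 (edgeR adjusted p = 0.000991), while IAA1 and IAA3 fell by 0.75 ± 0.19 (edgeR adjusted p = 0.0104) and 0.58 ± 0.11 (edgeR adjusted p = 0.00157).

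Gibberellin genes fell without exception among those called, 5 of 7 tested (median -0.85). They include both enzymes that inactivate the hormone and enzymes that make it. GA2OX1, an inactivating oxidase, had 0.626, 0.276, 0.327 and 0.484 CPM in d14-7, against 6.99, 8.25, 5.72 and 7.5 CPM in the libraries labelled ckx3 ckx5 (log2 fold change -4.05 ± 0.22 (SE), edgeR adjusted p = 3.81e-08). GA2OX2, of the same kind, had 3.84, 4.84, 3.7 and 3.61 CPM in d14-7, against 17.1, 16.7, 15.5 and 11.4 CPM in the libraries labelled ckx3 ckx5 (log2 fold change -1.9 ± 0.14 (SE), edgeR adjusted p = 4.61e-07). The level of GA2OX1 in the libraries labelled ckx3 ckx5 was above WT (1.28 ± 0.141 CPM (SD, n = 4)), whereas GA2OX2 was at the WT level (12.8 ± 4.61 CPM (SD, n = 4)). On the synthesis side GA20OX1 fell by 1.1 ± 0.15 (edgeR adjusted p = 6.95e-05) and GA3OX1 by 0.72 ± 0.1 (edgeR adjusted p = 9.39e-05). GA20OX2 fell by 0.85 ± 0.27 with overlapping ranges (edgeR adjusted p = 0.0234), and that call was lost under 6 of 17 alternatives.

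Abscisic acid and dehydration genes were lower in d14-7. Of 17 tested members 12 fell and none rose (1 without replicate 2 of the libraries labelled ckx3 ckx5), with a median of -0.83. ABI5, a transcription factor of the response, had 0.793, 0.857, 0.85 and 0.654 CPM in d14-7, against 8.14, 9.68, 6.48 and 4.71 CPM in the libraries labelled ckx3 ckx5 (log2 fold change -3.17 ± 0.23 (SE), edgeR adjusted p = 4.42e-07). ABF1, a related factor, had 5.88, 5.54, 5.62 and 5.83 CPM in d14-7, against 23.5, 23.9, 23.7 and 24.2 CPM in the libraries labelled ckx3 ckx5 (log2 fold change -2.03 ± 0.07 (SE), edgeR adjusted p = 5.99e-10). The genotypes did not overlap in either. WT averaged 4.66 ± 1.8 CPM (SD, n = 4) for ABI5, overlapping the libraries labelled ckx3 ckx5, and 6.77 ± 1.12 CPM (SD, n = 4) for ABF1, close to d14-7. The protective proteins COR15A and COR6.6 fell by 1.64 ± 0.12 (edgeR adjusted p = 2.76e-06) and 1.78 ± 0.16 (edgeR adjusted p = 2.7e-05). The dehydrins COR47 and ERD10 fell by 1.28 ± 0.09 (edgeR adjusted p = 7.8e-07) and 1.14 ± 0.09 (edgeR adjusted p = 7.18e-07). RD29A, a marker gene of drought and cold, had 39.1, 42.6, 33.1 and 30.1 CPM in d14-7, against 87.5, 107, 71 and 63.7 CPM in the libraries labelled ckx3 ckx5 (log2 fold change -1.16 ± 0.19 (SE), edgeR adjusted p = 0.00171), and HB7, a homeodomain factor induced by the hormone, fell by 0.91 ± 0.13 (edgeR adjusted p = 0.000114). RAB18, another dehydrin, was not called (log2 fold change -0.83 ± 0.45 (SE), edgeR adjusted p = 0.146). Its d14-7 replicate 1 stood at 1.13 CPM, above 0.276 to 0.37 CPM in the other 3, and without it the value was -1.44 (edgeR adjusted p = 0.0115).

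The phosphatases that hold the hormone's signal down and the enzymes that break it down gave 3 rises and 4 falls among 11 tested members (median -0.21). HAI2 and HAI1, phosphatases induced by abscisic acid, fell by 2.18 ± 0.24 (edgeR adjusted p = 1.04e-05) and 1.61 ± 0.3 (edgeR adjusted p = 0.00232). Both breakdown enzymes called rose. CYP707A4 had 36.8, 33.6, 35.7 and 37.4 CPM in d14-7, against 16.5, 17.8, 13.1 and 17.8 CPM in the libraries labelled ckx3 ckx5 (log2 fold change 1.16 ± 0.09 (SE), edgeR adjusted p = 6.82e-07), with WT at 14.8 ± 2.63 CPM (SD, n = 4), and CYP707A1 had 27.9, 24.1, 28.2 and 20 CPM in d14-7, against 16.7, 14.4, 14.1 and 11.6 CPM in the libraries labelled ckx3 ckx5 (log2 fold change 0.84 ± 0.13 (SE), edgeR adjusted p = 0.000346), with WT at 24.1 ± 5.57 CPM (SD, n = 4). The phosphatase HAB1 rose by a log2 fold change of 0.34 ± 0.06 (edgeR adjusted p = 0.000392), and ABI1 and ABI2 fell by 0.43 ± 0.06 (edgeR adjusted p = 5.12e-05) and 0.57 ± 0.08 (edgeR adjusted p = 6.87e-05).

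Genes of darkness and sugar starvation were lower in d14-7 as well. Of 15 tested members 10 fell and 1 rose, with a median of -1.04. DIN10, a dark-induced gene, had 6.55, 4.9, 8.73 and 10.4 CPM in d14-7, against 39.3, 34.9, 35.8 and 49.4 CPM in the libraries labelled ckx3 ckx5 (log2 fold change -2.35 ± 0.23 (SE), edgeR adjusted p = 0.000114). DIN6, an asparagine synthetase, had 14.2, 11.4, 16.7 and 19 CPM in d14-7, against 44.7, 42, 37.2 and 39.5 CPM in the libraries labelled ckx3 ckx5 (log2 fold change -1.39 ± 0.14 (SE), edgeR adjusted p = 3.24e-05). All d14-7 libraries were lower. For DIN10 it was the libraries labelled ckx3 ckx5 that stood apart from WT (8.42 ± 3.34 CPM (SD, n = 4)), while for DIN6 the WT range of 18.7 to 57.9 CPM covered that of the libraries labelled ckx3 ckx5. SEN1, a gene of senescing leaves, fell by 2.09 ± 0.39 (edgeR adjusted p = 0.000912) and by 3.02 on transcript models. GDH2, a glutamate dehydrogenase, fell by 1.14 ± 0.07 (edgeR adjusted p = 9.28e-08) and BCAT2, an aminotransferase of branched amino acids, by 1.04 ± 0.17 (edgeR adjusted p = 0.000747). The trehalose phosphate synthase homologues TPS9, TPS10 and TPS11 fell by 1.15 ± 0.22 (edgeR adjusted p = 0.0029), 1.24 ± 0.09 (edgeR adjusted p = 3.76e-07) and 1.22 ± 0.16 (edgeR adjusted p = 0.000198). EXL1 was the only member of this list to rise (log2 fold change 1.23 ± 0.22 (SE), edgeR adjusted p = 0.000473), and without replicate 3 of the libraries labelled ckx3 ckx5 the count of rises was 2.

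Trehalose phosphate enzymes outside that list gave 3 rises and 5 falls among 13 tested members (median -0.12). The phosphatase TPPI fell by 1.65 ± 0.16 (edgeR adjusted p = 3.88e-06) and TPPB by 0.85 ± 0.14 (edgeR adjusted p = 0.000339). The rises were small, the largest being TPPA at 0.33 ± 0.05 (edgeR adjusted p = 0.000323), which was not called on transcript models (0.22, edgeR adjusted p = 0.505). Without replicate 1 of the libraries labelled ckx3 ckx5 the count of rises was 1. Genes of sugar and nitrate transport and of nitrate reduction gave 7 rises and 2 falls among 16 (median 0.46). NRT2.5, a nitrate transporter of starved plants, had 2.84, 1.9, 13.6 and 4.15 CPM in d14-7, against 0.249, 0.251, 0.0609 and 0.385 CPM in the libraries labelled ckx3 ckx5 (log2 fold change 4.59 ± 0.91 (SE), edgeR adjusted p = 0.00555). Replicate 3 of d14-7 stood far above the other 3, yet all 4 were above the libraries labelled ckx3 ckx5, and without it the log2 fold change was 3.66 (edgeR adjusted p = 2.38e-05). SWEET14 and SWEET1, sugar exporters, rose by 1.38 ± 0.16 (edgeR adjusted p = 2.05e-05) and 1.13 ± 0.14 (edgeR adjusted p = 6.81e-05). The nitrate and nitrite reductase genes NIA2 and NIR1 rose by 0.38 ± 0.08 (edgeR adjusted p = 0.00134) and 0.35 ± 0.09 (edgeR adjusted p = 0.00765). The sugar transporter SWEET4 fell by 1.92 ± 0.35 (edgeR adjusted p = 0.000593).

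The circadian clock separated the genotypes. It runs on a cycle in which the morning factors CCA1 and LHY repress genes of the day and evening, which in turn repress CCA1 and LHY. Of 10 morning genes 8 rose and 1 fell in d14-7 (median 0.71), and of 10 day and evening genes 8 fell and none rose (median -0.89). LHY (AT1G01060, chr1:33365-37871, minus strand) had 181, 186, 188 and 181 CPM in d14-7, against 19.1, 22.2, 19.5 and 24.4 CPM in the libraries labelled ckx3 ckx5 (log2 fold change 3.14 ± 0.07 (SE), edgeR adjusted p = 2.15e-11), and CCA1 had 113, 107, 105 and 103 CPM in d14-7, against 24.5, 30, 23.9 and 25.3 CPM in the libraries labelled ckx3 ckx5 (log2 fold change 2.07 ± 0.07 (SE), edgeR adjusted p = 7.04e-10). Replicates lay close together and the genotypes were well apart. WT stood above both mutants at 258 ± 1.83 CPM (SD, n = 4) for LHY and 138 ± 4.25 CPM (SD, n = 4) for CCA1, so that it was the libraries labelled ckx3 ckx5 that departed most from WT. RVE8, an activator of evening genes, and LNK2, its partner, rose by 1.74 ± 0.05 (edgeR adjusted p = 3.43e-10) and 1.26 ± 0.06 (edgeR adjusted p = 9.69e-09). RVE7 was the member that fell, by 0.91 ± 0.09 (edgeR adjusted p = 4.39e-06).

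On the day and evening side, PRR5 (AT5G24470, chr5:8356204-8358546, minus strand), a repressor of CCA1 and LHY, had 0.542, 0.888, 0.621 and 0.683 CPM in d14-7, against 13.1, 13.6, 14.4 and 9.58 CPM in the libraries labelled ckx3 ckx5 (log2 fold change -4.16 ± 0.18 (SE), edgeR adjusted p = 4.88e-09). PRR3, of the same family, had 1, 0.98, 0.719 and 0.74 CPM in d14-7, against 4.12, 4.73, 4.29 and 4.33 CPM in the libraries labelled ckx3 ckx5 (log2 fold change -2.33 ± 0.17 (SE), edgeR adjusted p = 3.68e-07), but was not called on transcript models (edgeR adjusted p = 0.0796). GI, which couples the clock to flowering time, had 29.9, 28.1, 23.2 and 20.4 CPM in d14-7, against 59, 55.3, 52.2 and 48.9 CPM in the libraries labelled ckx3 ckx5 (log2 fold change -1.07 ± 0.11 (SE), edgeR adjusted p = 2.5e-05). In all 3 genes the libraries labelled ckx3 ckx5 were above both d14-7 and WT, which averaged 0.894 ± 0.172 CPM (SD, n = 4) for PRR5, 0.93 ± 0.0584 CPM (SD, n = 4) for PRR3 and 27.4 ± 3.54 CPM (SD, n = 4) for GI. TOC1 fell by 0.62 ± 0.08 (edgeR adjusted p = 3.07e-05), LUX by 0.76 ± 0.09 (edgeR adjusted p = 2.27e-05), ELF3 by 0.88 ± 0.07 (edgeR adjusted p = 4.59e-07) and PRR7 by 0.72 ± 0.05 (edgeR adjusted p = 3.02e-07). PRR9, which peaks early in the day, did not pass the test (log2 fold change 0.1 ± 0.1 (SE), edgeR adjusted p = 0.467), nor did ELF4 (log2 fold change -0.9 ± 0.38 (SE), edgeR adjusted p = 0.0699), which did under 3 alternatives, with the lowest edgeR adjusted p of 0.0269 without d14-7 replicate 1. Because the hour of each harvest within the morning is not given, hour and genotype cannot be told apart for clock genes and their outputs.

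Output genes and light-signalling factors were all called, 8 up and 8 down among 16. GRP7, an RNA-binding protein under clock control, had 92.9, 109, 87 and 84.3 CPM in d14-7, against 414, 457, 442 and 491 CPM in the libraries labelled ckx3 ckx5 (log2 fold change -2.25 ± 0.08 (SE), edgeR adjusted p = 1.09e-09), and CCL, a gene of unstable transcripts, had 14.4, 13.2, 23.2 and 23 CPM in d14-7, against 141, 177, 155 and 101 CPM in the libraries labelled ckx3 ckx5 (log2 fold change -2.93 ± 0.27 (SE), edgeR adjusted p = 0.000142). FKF1, a blue-light receptor of the flowering pathway, had 0.25, 0.0306, 0 and 0.114 CPM in d14-7, against 1.19, 1.54, 1.34 and 0.609 CPM in the libraries labelled ckx3 ckx5 (log2 fold change -3.6 ± 0.56 (SE), edgeR adjusted p = 0.000217), and without d14-7 replicate 1 the value was -4.41. WT was near d14-7 in GRP7 at 91.1 ± 5.45 CPM (SD, n = 4) and in FKF1 at 0.05 ± 0.0415 CPM (SD, n = 4). In the other direction the early light-induced gene ELIP1 had 121, 80.4, 29.6 and 31.2 CPM in d14-7, against 1.81, 3.48, 2.13 and 0.801 CPM in the libraries labelled ckx3 ckx5 (log2 fold change 5.03 ± 0.73 (SE), edgeR adjusted p = 0.0018), with d14-7 replicates 1 and 2 far above 3 and 4. COL2, a relative of the flowering regulator CO, and HYH, a light-signalling factor, rose by 1.98 ± 0.09 (edgeR adjusted p = 6.56e-09) and 1.89 ± 0.14 (edgeR adjusted p = 7.06e-07).

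Promoters of 5 of the fallen clock genes are printed because the letters AATATCT, the core of the evening element to which CCA1 and LHY bind, recur in them. A copy on the other strand reads AGATATT here. Capitals mark each copy, on either strand, in windows of 300 bases read 5′ to 3′ on the coding strand, from the RefSeq annotation of TAIR10.1.
PRR5, chr5:8358497-8358796 (minus strand): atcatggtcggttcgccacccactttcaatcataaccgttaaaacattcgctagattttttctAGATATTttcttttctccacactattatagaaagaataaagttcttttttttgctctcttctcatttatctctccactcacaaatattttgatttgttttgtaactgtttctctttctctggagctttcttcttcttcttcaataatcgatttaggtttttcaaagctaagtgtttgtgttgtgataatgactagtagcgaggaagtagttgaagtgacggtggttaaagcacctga
FKF1, chr1:25508389-25508688 (plus strand): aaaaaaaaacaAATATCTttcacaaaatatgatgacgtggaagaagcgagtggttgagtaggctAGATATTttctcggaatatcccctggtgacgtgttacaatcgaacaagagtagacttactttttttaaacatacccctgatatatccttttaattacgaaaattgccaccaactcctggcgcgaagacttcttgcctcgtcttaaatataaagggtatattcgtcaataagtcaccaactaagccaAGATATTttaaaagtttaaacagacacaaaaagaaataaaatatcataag
CCL, chr3:9827432-9827731 (plus strand): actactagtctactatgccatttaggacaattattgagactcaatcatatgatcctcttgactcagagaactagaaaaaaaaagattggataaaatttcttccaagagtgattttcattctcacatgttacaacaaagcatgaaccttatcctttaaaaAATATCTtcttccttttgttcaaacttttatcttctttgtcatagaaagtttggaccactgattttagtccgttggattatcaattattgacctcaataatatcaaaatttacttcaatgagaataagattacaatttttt
PRR3, chr5:24201366-24201665 (minus strand): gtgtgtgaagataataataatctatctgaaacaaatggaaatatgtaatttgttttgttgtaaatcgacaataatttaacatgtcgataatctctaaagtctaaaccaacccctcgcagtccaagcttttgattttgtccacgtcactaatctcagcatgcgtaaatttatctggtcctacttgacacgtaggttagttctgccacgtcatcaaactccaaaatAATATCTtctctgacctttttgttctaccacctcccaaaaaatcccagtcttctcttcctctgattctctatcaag
GRP7, chr2:9266508-9266807 (minus strand): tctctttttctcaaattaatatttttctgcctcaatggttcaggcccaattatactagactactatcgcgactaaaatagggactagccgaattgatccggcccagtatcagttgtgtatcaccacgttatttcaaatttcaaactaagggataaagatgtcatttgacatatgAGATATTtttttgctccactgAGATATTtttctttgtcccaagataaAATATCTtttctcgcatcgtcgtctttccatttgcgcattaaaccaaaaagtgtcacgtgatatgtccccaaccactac
PRR5 held 1 copy, beginning 187 bases before the gene start, and CCL held 1 copy 91 bases before it. FKF1 and GRP7 held 3 copies each. The letters occurred in 8 of 10 day and evening genes (80%), in 4 of 10 morning genes (40%), in 25.5% of the 593 promoters of loci that fell at least 2-fold, in 12.9% of the 777 promoters of loci that rose as much, and in 11.7% of the 20303 promoters of all loci tested. The day and evening genes without a copy were GI and ELF3, both of which fell. PRR9 and ELF4, the day and evening genes not called, held 3 and 4 copies. The 4 morning genes with a copy were CCA1, RVE8, RVE2 and RVE7, of which RVE7 fell and the others rose. These shares describe letters in a window and do not show binding. The abscisic acid response element ACGTGGC, searched on both strands, was found in 4.89% of the fallen, 4.12% of the risen and 4.66% of all promoters.

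**Figure D4:**
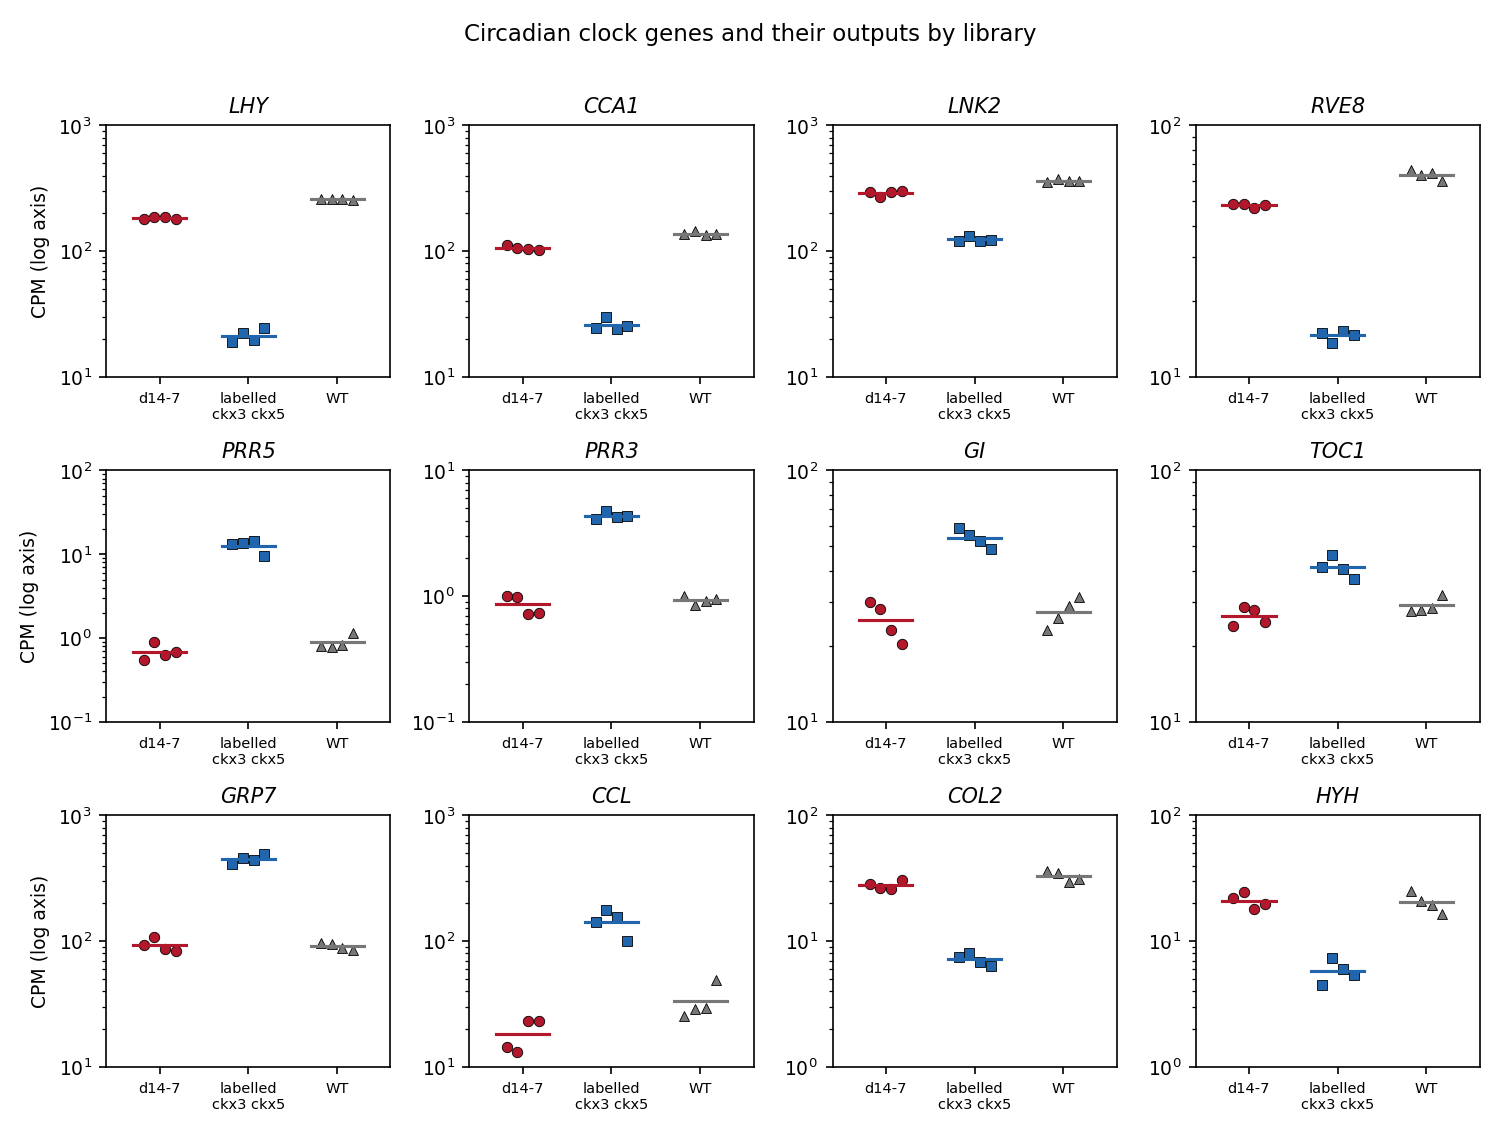
Level of 12 clock genes and clock outputs in CPM (y axis, log scale) in the 4 libraries each of d14-7, the libraries labelled ckx3 ckx5 and WT (x axis); points are libraries and bars are means. In all 12 panels the libraries labelled ckx3 ckx5 are apart from both d14-7 and WT, lower for LHY, CCA1, LNK2, RVE8, COL2 and HYH and higher for the other 6 genes.

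Defence genes rose in d14-7. The salicylic acid list had 15 of 17 tested members risen and none fallen (median 0.85). PR2, a glucanase secreted in defence, had 152, 94.3, 83.4 and 74.3 CPM in d14-7, against 37, 34, 34.4 and 46.3 CPM in the libraries labelled ckx3 ckx5 (log2 fold change 1.43 ± 0.25 (SE), edgeR adjusted p = 0.00335). EDS1, a hub of immune signalling, had 75.3, 63.8, 72.9 and 65.8 CPM in d14-7, against 37.8, 40.7, 39 and 45.5 CPM in the libraries labelled ckx3 ckx5 (log2 fold change 0.79 ± 0.07 (SE), edgeR adjusted p = 2.11e-06). ICS1, which makes the precursor of salicylic acid, had 27.1, 18.3, 22.6 and 18.8 CPM in d14-7, against 11.8, 12.6, 11.9 and 12.7 CPM in the libraries labelled ckx3 ckx5 (log2 fold change 0.85 ± 0.12 (SE), edgeR adjusted p = 9.58e-05). The d14-7 libraries were above every library labelled ckx3 ckx5 in these genes, and WT averaged 231 ± 110 CPM (SD, n = 4) for PR2, 82.9 ± 13.1 CPM (SD, n = 4) for EDS1 and 21 ± 6.2 CPM (SD, n = 4) for ICS1, higher than the libraries labelled ckx3 ckx5 in each. The WT average was also above every d14-7 library for PR2 and EDS1, and within the d14-7 range for ICS1. The transcription factor WRKY70 rose by a log2 fold change of 0.91 ± 0.06 (edgeR adjusted p = 2.5e-07) and WRKY62 by 2.81 ± 0.27 (edgeR adjusted p = 3.84e-06). PR1, the usual marker of this response, did not pass the test (log2 fold change -0.15 ± 0.43 (SE), edgeR adjusted p = 0.809), with WT far above both mutants at 136 ± 68.5 CPM (SD, n = 4).

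Jasmonate genes gave 11 rises and no fall among 18 (median 0.7). LOX2, a lipoxygenase of jasmonate synthesis, had 666, 770, 599 and 624 CPM in d14-7, against 176, 180, 455 and 91.1 CPM in the libraries labelled ckx3 ckx5 (log2 fold change 1.58 ± 0.49 (SE), edgeR adjusted p = 0.0379), with replicate 3 of the libraries labelled ckx3 ckx5 well above the other 3, and the call was lost under 8 of 17 alternatives, while without that library the log2 fold change was 2.17 (edgeR adjusted p = 0.000969). LOX4 and AOS, further enzymes of synthesis, rose by 1.62 ± 0.2 (edgeR adjusted p = 0.000117) and 0.61 ± 0.12 (edgeR adjusted p = 0.00222). VSP2, a storage protein induced by jasmonate, was not called (log2 fold change -0.51 ± 0.36 (SE), edgeR adjusted p = 0.29). Without replicate 1, or without replicate 2, of the libraries labelled ckx3 ckx5 the count of risen members was 6. Touch and wounding genes, chosen as signs of handling, gave 5 rises and no fall among 8 members (median 1.13). Their summed level was 143 to 281 CPM in d14-7, 87.3 to 117 CPM in the libraries labelled ckx3 ckx5 but 152 to 305 CPM in WT, and its part in the defence results was not tested. TCH3, a calmodulin-like touch gene, and WRKY33, a defence regulator, rose by 1.71 ± 0.3 (edgeR adjusted p = 0.00372) and 1.33 ± 0.19 (edgeR adjusted p = 0.000646).

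The 4 largest rises among loci with a symbol and at least 5 CPM in either genotype, and with no overlap between libraries, were plant defensins, small antifungal proteins. PDF1.3 (AT2G26010, chr2:11087280-11088001, plus strand) had 59.2, 54, 66.6 and 42.3 CPM in d14-7, against 0.468, 0.323, 0.0913 and 0.16 CPM in the libraries labelled ckx3 ckx5 (log2 fold change 7.75 ± 0.28 (SE), edgeR adjusted p = 1.28e-07), and PDF1.2 had 409, 350, 333 and 223 CPM in d14-7, against 8.73, 15.1, 7.73 and 9.36 CPM in the libraries labelled ckx3 ckx5 (log2 fold change 5.04 ± 0.3 (SE), edgeR adjusted p = 1.54e-05). No library came near the other genotype, and WT lay between at 3.89 ± 1.7 CPM (SD, n = 4) for PDF1.3 and 66.3 ± 29.6 CPM (SD, n = 4) for PDF1.2. PDF1.2b and PDF1.2c rose by 5.29 ± 0.36 (edgeR adjusted p = 1.45e-05) and 5.14 ± 0.36 (edgeR adjusted p = 4.83e-05). These genes are nearly identical in sequence, so how their reads were shared among them is uncertain.

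Leaf photosynthesis genes, listed as markers of leaf tissue, gave 22 rises and no fall among 26 (median 0.5), beside the summed levels given above. RCA, which activates Rubisco, had 2474, 1856, 2046 and 2373 CPM in d14-7, against 1024, 1201, 1108 and 910 CPM in the libraries labelled ckx3 ckx5 (log2 fold change 1.07 ± 0.11 (SE), edgeR adjusted p = 7.67e-06). RBCS2B, a Rubisco small subunit, had 731, 452, 561 and 634 CPM in d14-7, against 111, 192, 177 and 89 CPM in the libraries labelled ckx3 ckx5 (log2 fold change 2.09 ± 0.29 (SE), edgeR adjusted p = 0.0012). LHCB1.1, a light-harvesting protein, had 3156, 2924, 3219 and 3731 CPM in d14-7, against 1178, 1231, 1597 and 1065 CPM in the libraries labelled ckx3 ckx5 (log2 fold change 1.39 ± 0.12 (SE), edgeR adjusted p = 3.52e-06). Every d14-7 library exceeded every library labelled ckx3 ckx5 in these genes, but the WT range was wide, from 95.2 to 648 CPM for RBCS2B and from 942 to 2698 CPM for LHCB1.1. Copies of the RBCS and LHCB1 families are close in sequence, so the split between them is uncertain. SBPASE and GAPB, enzymes of the Calvin cycle, rose by 1.07 ± 0.08 (edgeR adjusted p = 3.92e-07) and 1.02 ± 0.09 (edgeR adjusted p = 1.71e-06). Rises were smaller for PSBO1 of photosystem II at 0.28 ± 0.08 (edgeR adjusted p = 0.00859).

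Flavonoid and anthocyanin genes gave 10 rises and no fall among 16 (median 0.53). FLS1, which makes flavonols, had 123, 110, 74.1 and 80.7 CPM in d14-7, against 23.4, 25.3, 28.5 and 30.8 CPM in the libraries labelled ckx3 ckx5 (log2 fold change 1.86 ± 0.18 (SE), edgeR adjusted p = 0.000104), and its activator MYB111 had 4.17, 4.84, 3.07 and 3.36 CPM in d14-7, against 1.4, 0.789, 1.19 and 0.865 CPM in the libraries labelled ckx3 ckx5 (log2 fold change 1.87 ± 0.22 (SE), edgeR adjusted p = 1.87e-05). No library overlapped in either, and WT averaged 62.1 ± 20.7 CPM (SD, n = 4) for FLS1 and 1.19 ± 0.784 CPM (SD, n = 4) for MYB111. F3H, an enzyme shared by flavonols and anthocyanins, rose by 1.41 ± 0.22 (edgeR adjusted p = 0.00175). CHS, the entry enzyme, rose by 0.68 ± 0.2 (edgeR adjusted p = 0.023), a call lost under 3 alternatives, and DFR, of the anthocyanin branch, was not called (log2 fold change 0.37 ± 0.14 (SE), edgeR adjusted p = 0.052) but was under 7 of 17 alternatives, DESeq2 among them (adjusted p = 0.00809).

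**Figure D5:**
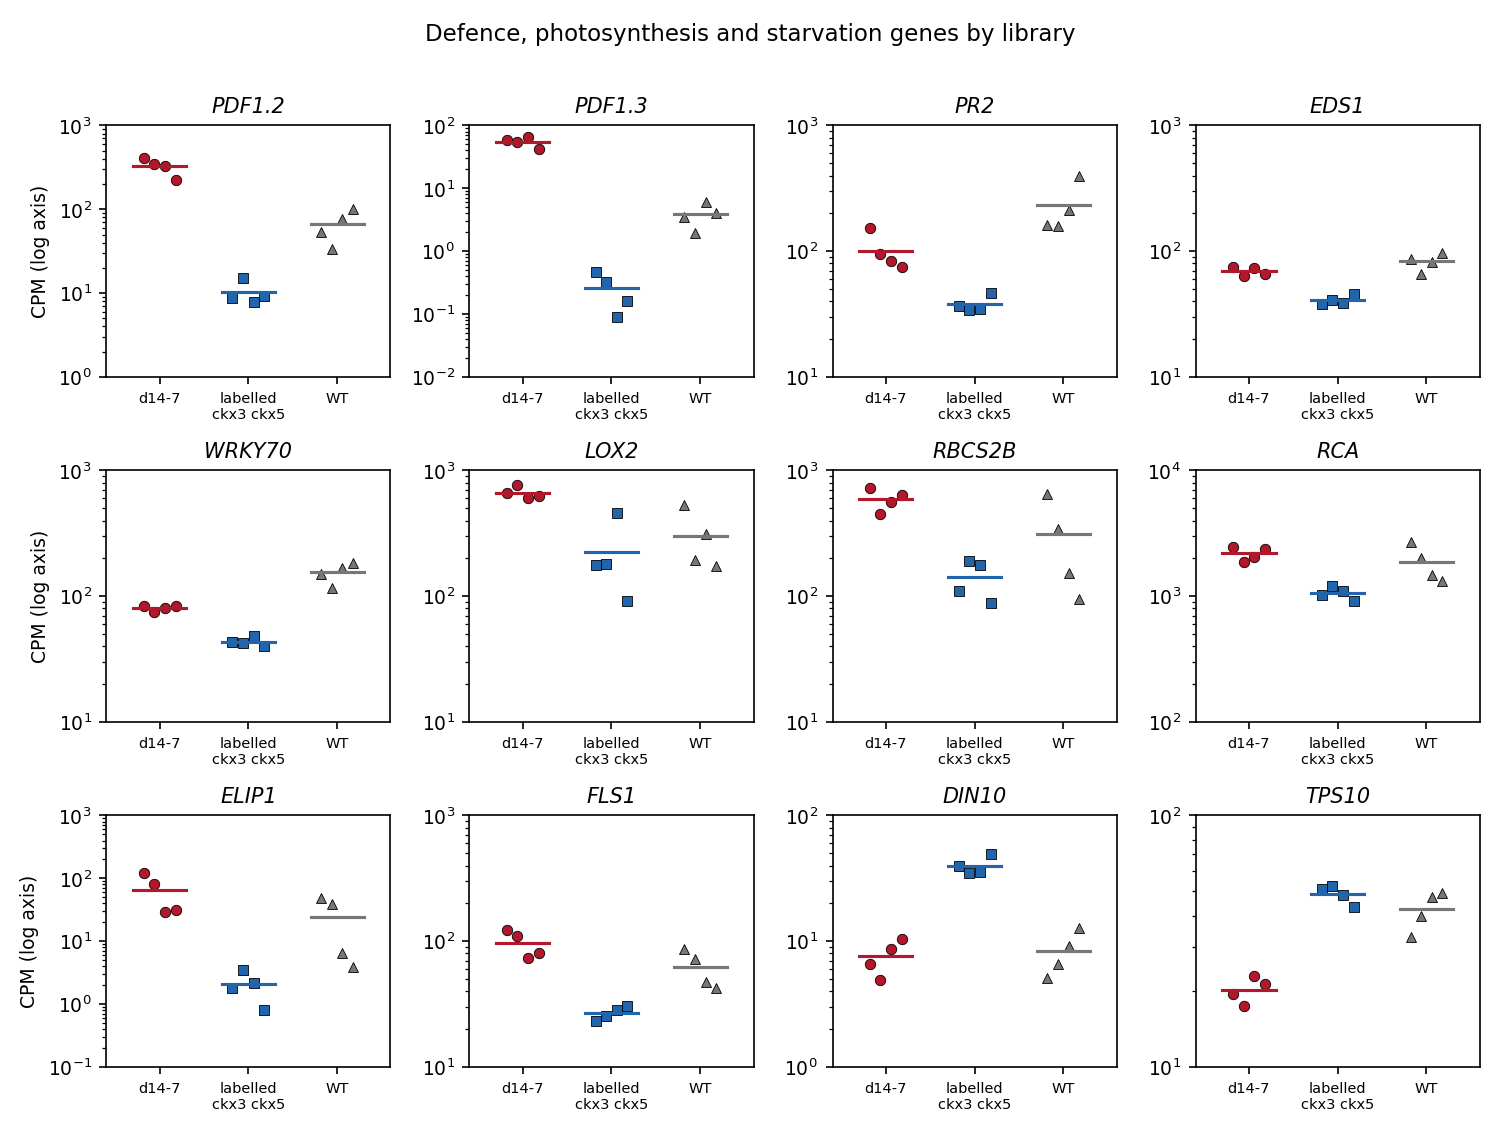
Level of 12 defence, photosynthesis, light, flavonoid and starvation genes in CPM (y axis, log scale) in the 4 libraries each of d14-7, the libraries labelled ckx3 ckx5 and WT (x axis); points are libraries and bars are means. The d14-7 libraries are above the libraries labelled ckx3 ckx5 in 10 panels, most for PDF1.3 and PDF1.2, and below them for DIN10 and TPS10.

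Cell division genes differed little. Of 28 G2/M genes, expressed as cells enter mitosis, 12 rose and 2 fell, and none by as much as 2-fold (median 0.22). CYCB1;1, a mitotic cyclin, was not called (log2 fold change 0.2 ± 0.12 (SE), edgeR adjusted p = 0.205), nor was KN, a syntaxin of the cell plate (log2 fold change 0.17 ± 0.07 (SE), edgeR adjusted p = 0.0638), which was called without replicate 3 of the libraries labelled ckx3 ckx5 or without d14-7 replicate 1. CDC20.1, an activator of the anaphase complex, had 139, 165, 137 and 157 CPM in d14-7, against 111, 108, 132 and 107 CPM in the libraries labelled ckx3 ckx5 (log2 fold change 0.41 ± 0.08 (SE), edgeR adjusted p = 0.000843), a call lost when all 16 libraries gave the spread (edgeR adjusted p = 0.0708). The kinase genes CDKB1;1 and CDKB2;1 fell by 0.33 ± 0.07 (edgeR adjusted p = 0.00209) and 0.21 ± 0.06 (edgeR adjusted p = 0.0141). AT1G63100, the locus of SCL28 in this study, measured 48.2, 59.5, 44.3 and 50.3 CPM in d14-7, against 41.5, 41.4, 49.8 and 42.9 CPM in the libraries labelled ckx3 ckx5. Its ranges overlap (log2 fold change 0.23 ± 0.09 (SE), edgeR adjusted p = 0.0468), and the call was lost under 12 of 17 alternatives. When all 16 libraries gave the spread, 1 G2/M gene was called as risen, and without replicate 2 or without replicate 4 of the libraries labelled ckx3 ckx5 the count was 7, against 12. The letters AACGG, searched on both strands, the core of the element shared by G2/M promoters, were found in 20 of the 28 windows (71.4%), against 26.2% of all promoters.

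Of 24 S phase genes 9 rose and none fell (1 without replicate 2 of the libraries labelled ckx3 ckx5), again none by 2-fold (median 0.19). ICU2, a DNA polymerase subunit, had 39.5, 39.3, 38.5 and 38.2 CPM in d14-7, against 27.6, 30.7, 32.7 and 29.8 CPM in the libraries labelled ckx3 ckx5 (log2 fold change 0.39 ± 0.06 (SE), edgeR adjusted p = 0.000144). The replication licensing factor CDT1A rose by 0.42 ± 0.09 (edgeR adjusted p = 0.00154), a call lost in the same way (edgeR adjusted p = 0.0673), and the sliding clamp gene PCNA1 was not called (log2 fold change 0.05 ± 0.1 (SE), edgeR adjusted p = 0.716). With all 16 libraries 1 S phase gene was called as risen. CYCD3;1, a cyclin induced by cytokinin, had 99.3, 108, 91.8 and 101 CPM in d14-7, against 79.2, 78.7, 82.5 and 74.3 CPM in the libraries labelled ckx3 ckx5 (log2 fold change 0.37 ± 0.06 (SE), edgeR adjusted p = 0.000152). D-type cyclins gave 2 rises and 1 fall among 9. Inhibitors of cyclin-dependent kinases gave 2 rises and 3 falls among 16, and 4 rises without d14-7 replicate 3. KRP1 of this family had 7.13, 3.8, 6.61 and 6.57 CPM in d14-7, against 1.96, 2.26, 1.31 and 1.54 CPM in the libraries labelled ckx3 ckx5 (log2 fold change 1.79 ± 0.23 (SE), edgeR adjusted p = 4.23e-05), with WT at 3.52 ± 0.931 CPM (SD, n = 4), while KRP2 fell by 0.62 ± 0.08 (edgeR adjusted p = 5.21e-05) and SIM by 0.51 ± 0.07 (edgeR adjusted p = 7.97e-05).

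Flowering and phase change genes were lower in d14-7. Of 17 tested members 12 fell and 1 rose (median -0.54), with 2 rises without replicate 3 of the libraries labelled ckx3 ckx5. TFL1, which keeps shoot meristems vegetative and their axes growing, had 7.89, 8.39, 7.29 and 7.85 CPM in d14-7, against 27, 25.7, 25.3 and 24.2 CPM in the libraries labelled ckx3 ckx5 (log2 fold change -1.68 ± 0.07 (SE), edgeR adjusted p = 3.73e-09). FLC, a repressor of flowering, had 8.18, 6.4, 6.77 and 6.85 CPM in d14-7, against 13.1, 14.2, 11.8 and 19.6 CPM in the libraries labelled ckx3 ckx5 (log2 fold change -1.04 ± 0.15 (SE), edgeR adjusted p = 0.000168). SPL9, a factor of the adult phase, had 25.5, 30.6, 25.5 and 27.3 CPM in d14-7, against 42.2, 46.8, 45.1 and 48.8 CPM in the libraries labelled ckx3 ckx5 (log2 fold change -0.72 ± 0.07 (SE), edgeR adjusted p = 2.9e-06). No library overlapped, and WT averaged 16.9 ± 3.94 CPM (SD, n = 4) for TFL1, 13.9 ± 1.98 CPM (SD, n = 4) for FLC and 31.1 ± 5.06 CPM (SD, n = 4) for SPL9. LFY, a floral identity factor, fell by 0.76 ± 0.15 (edgeR adjusted p = 0.00125). AP1, of the same role, fell by 1.01 ± 0.31 with overlapping ranges (edgeR adjusted p = 0.0216), a call lost under 9 of 17 alternatives. MAF5, a relative of FLC, fell by 2.68 ± 0.49 (edgeR adjusted p = 0.00143), and SPL5 was the member that rose (log2 fold change 0.88 ± 0.13 (SE), edgeR adjusted p = 0.000109). Floral organ markers summed to 4.19 to 7.4 CPM in d14-7 and 4.13 to 16.5 CPM in the libraries labelled ckx3 ckx5. AP3, a floral organ factor, was the 1 of 6 members that fell (log2 fold change -1.58 ± 0.54 (SE), edgeR adjusted p = 0.0393), a call lost under 9 of 17 alternatives. Without replicate 4 of the libraries labelled ckx3 ckx5 4 floral organ genes fell, and DESeq2 called 3.

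Genes of the meristem and of organ boundaries gave 8 falls and 2 rises among 19 tested members (median -0.25), and none differed by 2-fold. The count of rises was 1 under 8 of 17 alternatives. ATH1, a homeodomain factor of the vegetative meristem, had 32.7, 37, 28.8 and 34.1 CPM in d14-7, against 56.6, 56.6, 53.9 and 53 CPM in the libraries labelled ckx3 ckx5 (log2 fold change -0.71 ± 0.07 (SE), edgeR adjusted p = 3.59e-06). STM, which maintains the shoot meristem, fell by 0.22 ± 0.07 (edgeR adjusted p = 0.0174), a call lost under 3 alternatives. LOB, a boundary gene, fell by 0.48 ± 0.06 (edgeR adjusted p = 4.2e-05), and CUC1, which founds boundaries, by 0.74 ± 0.2 (edgeR adjusted p = 0.00783). CLV1, a receptor kinase that limits the meristem, rose by a log2 fold change of 0.6 ± 0.09 (edgeR adjusted p = 0.00037). LAS and RAX2, which initiate axillary meristems, were not called (log2 fold change -0.63 ± 0.31 (SE), edgeR adjusted p = 0.117 for LAS and log2 fold change -0.02 ± 0.15 (SE), edgeR adjusted p = 0.926 for RAX2). Xylem genes gave 5 rises and 1 fall among 15 tested, the largest rise being LAC17, a laccase of lignin, at 0.41 ± 0.08 (edgeR adjusted p = 0.000739). Without d14-7 replicate 1 the xylem list gave 2 rises and 2 falls, and without d14-7 replicate 4 or without replicate 3 or 4 of the libraries labelled ckx3 ckx5 it gave 3 rises, against 1 when all 16 libraries gave the spread. The fall was that of NST1 (log2 fold change -0.86, edgeR adjusted p = 0.0357). Its call was lost without any 1 of 6 libraries (d14-7 replicates 2, 3 and 4, and replicates 1, 2 and 4 of the libraries labelled ckx3 ckx5). The call was also lost with all 16 libraries in the fit, with limma-voom, with a replicate block and on transcript models. Of the 2 root genes tested neither was called.

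Some of the 12 largest rises, chosen by size, were in no list. ASPGB1, an asparaginase, had 40.8, 26.8, 21.6 and 23.5 CPM in d14-7, against 1.28, 0.861, 1.49 and 1.09 CPM in the libraries labelled ckx3 ckx5 (log2 fold change 4.58 ± 0.27 (SE), edgeR adjusted p = 2.61e-06). NIT4, a nitrilase that handles cyanide products, had 13.9, 5.42, 15.6 and 8.25 CPM in d14-7, against 0.405, 0.681, 0.456 and 0.609 CPM in the libraries labelled ckx3 ckx5 (log2 fold change 4.35 ± 0.42 (SE), edgeR adjusted p = 5.75e-05). BGLU22, a beta-glucosidase, had 9.47, 9.12, 9.65 and 8.05 CPM in d14-7, against 0.998, 0.825, 1.19 and 0.545 CPM in the libraries labelled ckx3 ckx5 (log2 fold change 3.36 ± 0.18 (SE), edgeR adjusted p = 3.26e-08). The d14-7 libraries exceeded all others, and WT averaged 2.68 ± 1.72 CPM (SD, n = 4) for ASPGB1, 1.6 ± 0.151 CPM (SD, n = 4) for NIT4 and 1.61 ± 1.09 CPM (SD, n = 4) for BGLU22. GPT2, a plastid translocator of glucose phosphate, rose by 3.93 ± 0.64 (edgeR adjusted p = 0.00225), CSLA01, a cellulose synthase-like protein, by 4.1 ± 0.85 (edgeR adjusted p = 0.00776), and MSRB6, a methionine sulfoxide reductase, by 3.31 ± 0.38 (edgeR adjusted p = 0.000107). For CSLA01 the d14-7 replicates 1 and 2 stood at 17.5 and 15 CPM and replicates 3 and 4 at 2.91 and 4.75 CPM, and without replicate 3 of the libraries labelled ckx3 ckx5 the log2 fold change was 4.91.

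Likewise 4 of the 12 largest falls were in no list. BGLU47, a beta-glucosidase, had 2.55, 3.64, 2.29 and 3.7 CPM in d14-7, against 39.5, 47, 35.4 and 38 CPM in the libraries labelled ckx3 ckx5 (log2 fold change -3.67 ± 0.15 (SE), edgeR adjusted p = 2.03e-08). LEA4-5, a late embryogenesis protein that protects dry cells, had 0.25, 0.367, 0.163 and 0.199 CPM in d14-7, against 7.61, 8.64, 5.14 and 4.17 CPM in the libraries labelled ckx3 ckx5 (log2 fold change -4.66 ± 0.32 (SE), edgeR adjusted p = 3.26e-07). GASA1, a gibberellin-regulated peptide, had 2.55, 2.72, 2.65 and 2.62 CPM in d14-7, against 28.2, 45.8, 24.3 and 34.2 CPM in the libraries labelled ckx3 ckx5 (log2 fold change -3.62 ± 0.21 (SE), edgeR adjusted p = 2.06e-06). The genotypes were far apart in each. WT averaged 12.8 ± 1.95 CPM (SD, n = 4) for BGLU47, between both mutants, and 7.02 ± 3.17 CPM (SD, n = 4) for LEA4-5 and 27.7 ± 8.6 CPM (SD, n = 4) for GASA1, at the level of the libraries labelled ckx3 ckx5. MEE14 had 2.63, 2.69, 3.11 and 4.81 CPM in d14-7, against 43.1, 44.2, 40.1 and 34.8 CPM in the libraries labelled ckx3 ckx5 (log2 fold change -3.57 ± 0.17 (SE), edgeR adjusted p = 2.13e-07), and here the libraries labelled ckx3 ckx5 also departed from WT at 6.58 ± 2.51 CPM (SD, n = 4).

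A few loci had next to no counts in 1 of the genotypes. SWEET10, a sugar exporter, had 158 counts over d14-7, against 1 count over the libraries labelled ckx3 ckx5 (ratio 159 per total count, exact interval 28.2 to 6338) and 14 over WT. FLP1, a gene related to flowering, had 126 counts over d14-7, against 3 over the libraries labelled ckx3 ckx5 (ratio 42.4, interval 14.2 to 208). In the other direction AT3G17520, annotated as a late embryogenesis abundant protein, had 2 counts over d14-7, against 275 over the libraries labelled ckx3 ckx5, a ratio of 136 in their favour (interval 37.4 to 1131), and WT had 543. The locus AT1G48598 had no counts in d14-7 and 125 counts in the libraries labelled ckx3 ckx5, all in replicate 4. The chloroplast locus ATCG00830 had 169 counts in d14-7, all in replicate 4, and none in the libraries labelled ckx3 ckx5. These last values each rest on 1 library, and neither locus passed the filter for the test.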

How the data were processed

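Poly(A) RNA was sequenced from 16 libraries of 4 genotypes. The authors deposited estimated counts for 41671 transcript models, and the totals per library are whole numbers. The submitters' processing notes name TAIR10 and DESeq2. No source used here gives the aligner, the counting tool or the strand setting. Reads from overlapping genes and antisense partners cannot be told apart without strand.

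Model IDs lost their suffix and estimated counts were summed to 33602 loci. Of these, 32835 matched the RefSeq annotation of TAIR10.1, the source of positions and promoters, while 10665 have a symbol. The 8 libraries were scaled by TMM, filtered with filterByExpr and tested with edgeR's robust quasi-likelihood test (edgeR 4.0.16, limma 3.58.1, R 4.3.3), with Benjamini-Hochberg adjustment over 20440 loci. Printed CPM were scaled by TMM over all 16 libraries, and log2 fold changes come from the fit. The standard error (SE) was derived as the size of the log2 fold change over the square root of its F statistic. The common dispersion was 0.00872. Paired libraries of a genotype differed by a chi-square of 4.75 to 18.94 per locus, so none was a copy of another. Replicates are separate pools of plants. In simulated counts for this comparison, run on 20348 loci, the test recovered 82.1% of 67 loci changed 1.5-fold, 92.5% of 67 changed 2-fold and 98.5% of 65 changed 4-fold, with 9 false calls. Far fewer loci were changed there than the 9372 called in the data, and no spread particular to a locus was drawn. These rates therefore need not hold for the data.

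The 33 gene lists hold 461 members, of which 431 were tested. The members and lists were chosen with earlier results of these data known. Genes were named by rule: the mutated genes and SCL28, genes marked as key in the lists, up to 4 members per list and direction by size, the 12 largest rises and 12 largest falls, and loci counted in 1 genotype. AOS, BCAT2, COR47, ELF3, ERD10, GA3OX1, GAPB, GDH2, HYH, IPT9, LOB, MAX2, NIA2, NIR1, PRR7, PSBO1, SBPASE, TPS9 and TPS11 were picked from their lists after their values were seen. BRC2 was named outside the rule too. The 17 alternatives changed the scaling, filter, tool (DESeq2 1.42.0, limma-voom), libraries fitted, transcript models, replicate block and each library in turn. Exact intervals of count ratios (95%) cover counting error only.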

Additional observations from a re-analysis of the deposited data

Results flagged for a closer look

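In 25 of 422 groups of 4 libraries (5.92%), 1 library lay apart from the other 3 by Dixon's criterion at the 95% level. For independent values from a normal distribution this level gives about 1 in 20. The groups share the same libraries and some hold only a few counts, so 5.92% cannot be read against that rate. Replicate 4 of the libraries labelled ckx3 ckx5 was lower than the rest for BRC1 (6.96 CPM, others 12.3 to 12.6), HB40 (4.01 CPM, others 6.79 to 7.24), IPT7 (0 CPM, others 0.0304 to 0.0359) and FLP1 (0 CPM, others 0.0304 to 0.0359). It was higher than the rest for CKX5 (4.26 CPM, others 2.18 to 2.47), KUF1 (3.43 CPM, others 2.8 to 2.9), YUC8 (0.673 CPM, others 0.125 to 0.152) and TPPA (23.8 CPM, others 21.8 to 22.2). It alone had counts of SWEET10 (0.0321 CPM) and AT1G48598 (4.01 CPM) among the libraries labelled ckx3 ckx5. Over these libraries IPT7 and FLP1 had 3 counts each and SWEET10 had 1, so the differences in these genes rest on single counts.

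In d14-7, replicate 4 was high for DRM2 (1.05 CPM, others 0.417 to 0.52) and ARR5 (28.5 CPM, others 25 to 25.5), and alone had counts of ATCG00830 (4.81 CPM). Replicate 1 was high for RAB18 (1.13 CPM, others 0.276 to 0.37). Replicate 2 was low for KRP1 (3.8 CPM, others 6.57 to 7.13), LNK2 (272 CPM, others 298 to 301) and SWEET10 (0.582 CPM, others 1.51 to 1.63), and high for LOX4 (25.4 CPM, others 14.8 to 16.4) and TPPA (28.7 CPM, others 27.3 to 27.5).

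Among the libraries labelled ckx3 ckx5, replicate 3 was high for CDC20.1 (132 CPM, others 107 to 111) and CSLA01 (1.31 CPM, others 0.224 to 0.394), alone had counts of YUC5 (0.0913 CPM) and was low for TPPB (4.66 CPM, others 5.77 to 5.99). Replicate 2 was high for COR15A (74.3 CPM, others 51.4 to 53.7) and LNK2 (133 CPM, others 120 to 122).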

How the results depend on the processing

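Over 17 alternatives the count of loci called ran from 7709, with all 16 libraries in the fit, to 9473, with DESeq2, against 9372. Leaving out 1 library gave 8076 to 9082 calls. Deviations of libraries with the same replicate number in the sample titles had correlations of 0.082, -0.056, -0.257 and -0.085. A block on these numbers gave 8255 calls. The last of these pairs carries different numbers in the library names, so pairing by library name was not tested for it. Upper-quartile scaling gave 4411 rises and 5025 falls, against 4812 and 4560. Of 208 loci named by rule and tested, 166 kept their call, and where called their direction, under every alternative that tested them. A locus that an alternative removed before the test, as the stricter filter did with some at low CPM, was not counted as changed. The other 42 did not under at least 1, and 1 of them turned round, AHK4, at 0.32 ± 0.37 on transcript models (edgeR adjusted p = 0.553). With all 16 libraries in the fit, 1 G2/M gene and 1 S phase gene were called as risen. The count of risen auxin synthesis genes was 5 under a stricter filter, which removed YUC5, YUC8 and YUC9 before the test for low CPM. Leaving out 1 library gave 7 to 18 risen G2/M genes and 6 to 14 risen jasmonate genes. Of 53 other counts over lists, 14 moved by over 1.5 times under at least 1 alternative. Causes of the other changes were not tested. Levels near 0, as for FKF1, YUC5 and IPT7, leave a wide error on the fold change, which depends there on the prior count.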
